A study of Mus musculus with 6 samples.

Results

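Transcripts of the Mediator complex were examined in mouse zygotes 10 h after the zona pellucida protein ZP3 had been targeted by Trim-away. The members were all protein-coding genes of the deposited table whose symbol begins with Med followed by a digit, together with Ccnc, Cdk8 and Cdk19, and they numbered 33 of 25731 genes listed (16159 of them protein-coding). RPKM is the number of reads scaled to exon length and to library size. Multiplied by exon length and library total, the RPKM of each member came close to whole reads in all 6 libraries. The totals were themselves estimated so that values come out as whole reads, so this is no independent check.

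Mediator is a large assembly that carries signals from transcription factors bound at enhancers to RNA polymerase II at promoters. Its head and middle modules contact the polymerase and the general transcription factors, the tail receives most activators, Med14 runs through the core as its backbone, and a kinase module of Cdk8 or Cdk19, cyclin C, Med12 or Med12l and Med13 or Med13l docks on the core reversibly. In the zygote most mRNA was made by the oocyte and the embryonic genome is only starting to be transcribed, so transcripts of Mediator subunits at this stage are largely a maternal stock. Descriptions of the complex differ in where they place Med19 and Med27 to Med30, and the placement used here is a working one.

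The zygotes were wild-type, from B6C3F1 oocytes and CD1 males, and were injected 15 h after hCG. Control zygotes received mCherry-Trim21 mRNA at 0.2 mg/mL, the tracer Oregon green dextran at 0.02 mg/mL and the buffer of the antibody, and ZP3 Trim-away zygotes received the same mRNA and tracer with anti-ZP3 antibody at 1 mg/mL. TRIM21 is a ubiquitin ligase that binds antibodies, so that the antibody and its target go to the proteasome, and the injected Trim21 mRNA was common to both groups. Each group had 3 libraries from pools of 13 zygotes at E0.5, and the comparison asks which transcripts differ soon after ZP3 is targeted. Whether each pool was a collection of its own is not in the labels, so that what a p-value weighs is the variation among these pools, part of which may be technical. The groups differ in the antibody itself as well as in its target, and the effects of these cannot be told apart.

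The deposited columns of control replicates 2 and 3 hold means with control replicate 1 (no gene below 0.5 times replicate 1 in either column, and 2059 and 2090 genes at exactly that ratio), and these libraries were separated before any value was computed. Library totals, estimated from the RPKM values, were 15291000 to 20005724 reads. At these totals the 3 reads that a count of 0 allows correspond to 0.15 to 0.196 RPKM for a gene with 1 kb of exon, counting error only. Read counts, counting intervals and shares of reads given below rest on these estimates. Genes above 0 numbered 13202 to 14501 in the controls and 18794 to 20316 in ZP3 Trim-away, and the median SD of a tested gene on the log2(RPKM + 1) scale was 0.44 and 0.20 (0.39 and 0.22 for the Mediator members). Reads of Trim21 took 14.6% to 18.1% of the control libraries and 9.12% to 11.0% of the ZP3 Trim-away libraries. Of 10 zygote markers all were listed and 9 stood at 1 RPKM or more (Dppa3 highest), with summed levels of 6070 to 7383 RPKM (controls) and 8244 to 9586 RPKM (ZP3 Trim-away). Of 12 cumulus and granulosa cell markers 10 were listed (not Amh and Ptx3), 5 stood at 1 RPKM or more, and their sums were 8.55 to 19.3 RPKM against 19.6 to 39.1 RPKM. Of 6 sperm markers 3 were listed (not Prm1, Tnp1 and Tnp2), with sums of 2.39 to 7.77 RPKM against 1.58 to 2.09 RPKM. The part of these differences in the results below was not tested, apart from Trim21, which was left out of the totals as an alternative.

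Log2 fold changes of the head module centred above those of all genes, though less so when certain single libraries were left out. Those of the tail and the kinase module centred near or below 0 but turned in sign when certain single libraries were left out. No member passed the test. Of the 33 members 28 had a mean of at least 1 RPKM and were tested, and 0 passed limma with Benjamini-Hochberg adjustment at 0.05, beside 63 of 9965 genes tested (0.632% in either direction, 0.592% higher and 0.0401% lower). Of the 63 genes 59 were higher, against 9 of 12 under median ratio scaling, 18 of 24 under quantile normalization and 14 of 36 with the trend on exon length removed. Members that passed numbered 3 of 15 among genes of at least 10 RPKM (Med6, Med28 and Med18), beside 368 of 3459 genes (10.6%), and 11 of 28 with the columns as deposited, which count control replicate 1 more than once, beside 3539 of 9965 genes (35.5%). At an unadjusted limma p under 0.05 there were 8 members, beside 19.5% of all genes tested. In 7 members all 3 ZP3 Trim-away libraries lay above all 3 controls (20.3% of all genes tested did so), and in 1 member, Med15, all lay below (6.34%). Together these are 8 of 28 members against 26.7% of all genes tested. The log2 fold change (computed on log2(RPKM + 1), where changes of low genes come out too small) was above 0 in 19 of 28 members and in 67.3% of all genes tested. Its median was 0.10 in the members and 0.22 over all genes tested, so that the members lay at -0.12 relative to all genes and 13 of 28 stood above the median of all genes. Under other scalings the count above 0 was 13 (median ratio), 12 (quantile) and 13 (Trim21 left out of the totals), while the count above the median of all genes was 13 under each. RPKM is relative to the library total, so that a change in the RNA content per zygote is not seen in it.

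Levels spanned more than the differences between groups. Med27 was the most abundant member and held 25.5% of the summed Mediator RPKM, and the 5 most abundant members (Med27, Med6, Med28, Med10 and Med31) held 64.1%. In the order of mean level, 15 members stood at 10 RPKM or more, 13 between 1 and 10 RPKM and 5 below 1 RPKM, and 31 of 32 neighbours in that order had ranges that overlapped over the 6 libraries. The exception was Med27, which lay above Med6 in every library. Summed over all 33 members the control libraries came to 590 ± 83.5 RPKM and the ZP3 Trim-away libraries to 748 ± 26.5 RPKM (mean ± SD, 3 pools each). Much of this difference lies in Med6 (means of 65.8 and 124 RPKM) and Med28 (60.1 and 106 RPKM). The totals also include Trim21 reads, which took a larger share of the control libraries.

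**Figure D1:**
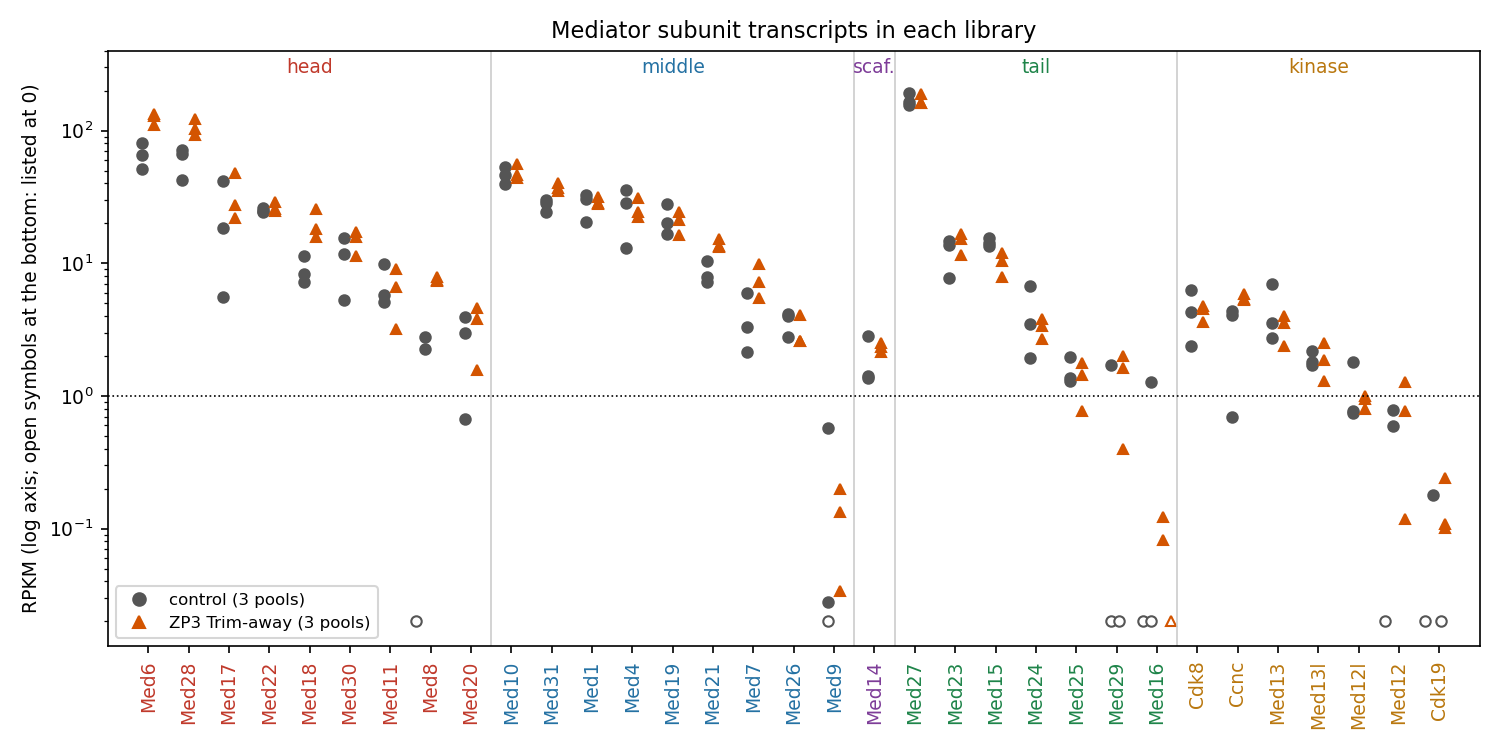
RPKM (log axis) of the 33 Mediator members in each of 6 libraries, grouped by module and ordered by mean level within it. Circles are the 3 control pools and triangles the 3 ZP3 Trim-away pools, open symbols at the bottom are libraries in which the gene is listed at 0, and the dotted line marks 1 RPKM. Triangles lie above all circles for Med6, Med28, Med18 and Med8 in the head, for Med31 and Med21 in the middle and for Ccnc, and below all circles for Med15.

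Med6 is a head subunit conserved from yeast and stood next to Med27 in abundance. It measured 51.1, 80.9 and 65.6 RPKM in control replicates 1, 2 and 3 and 111, 129 and 132 RPKM in ZP3 Trim-away replicates 1, 2 and 3. The groups did not overlap, and the lowest ZP3 Trim-away library stood above the highest control by more than the counting error of either (95% Poisson interval 106 to 115 RPKM against 77.6 to 84.2 RPKM). The means were 65.8 ± 14.9 and 124 ± 11.6 RPKM (SD, n = 3 each), a log2 fold change of 0.92 ± 0.18 SE (95% confidence interval 0.52 to 1.32), or 0.70 relative to the median of all genes, and the adjusted p of 0.0519 (limma) missed the threshold. Without control replicate 2 it passed (1.08, adjusted p = 0.0322), and it passed too when the fit was limited to genes averaging 10 RPKM or more (adjusted p = 0.0252). It was 0.53 with the trend on exon length removed (adjusted p = 0.157) and 0.73 under both median ratio scaling and quantile normalization, and the adjusted p was 0.213 to 0.289 without any 1 ZP3 Trim-away library.

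Med28, a head subunit found in animals, measured 42.6, 66.7 and 71.2 RPKM in the control libraries, against 123, 102 and 92.3 RPKM after ZP3 Trim-away. The groups did not overlap, and control replicate 1 was the lowest library. The log2 fold change was 0.83 ± 0.21 SE (limma adjusted p = 0.0848). Med18, which in yeast pairs with Med20 in the movable jaw of the head, measured 7.17, 11.4 and 8.35 RPKM against 15.7, 18.2 and 25.6 RPKM. Again no ZP3 Trim-away library was as low as a control. Its log2 fold change was 1.06 ± 0.25 SE (limma adjusted p = 0.0748), and it passed with Med28 when only genes of at least 10 RPKM were tested (adjusted p = 0.0415 and 0.0417). With the length trend removed Med18 was at 0.71 (adjusted p = 0.229) and Med28 at 0.68 (adjusted p = 0.176), and under median ratio scaling they were at 0.88 and 0.64 (adjusted p = 0.141 and 0.157).

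The promoters of these 3 head genes are shown because they are the members that came nearest to the threshold at 10 RPKM or more. Each runs from 250 bases before to 50 bases after the start of the gene (RefSeq, GRCm38.p6) and is written 5′ to 3′ on the gene's strand, with capitals for a CCAAT box (CCAAT), a GC box (GGGCGG) or an ETS-type motif (CCGGAAGT), each searched on both strands, with no match overlapping another in these windows. They lie at chr12:81594959-81595258 on the minus strand (Med6), chr5:45519979-45520278 on the plus strand (Med28) and chr4:132463872-132464171 on the minus strand (Med18).
Med6: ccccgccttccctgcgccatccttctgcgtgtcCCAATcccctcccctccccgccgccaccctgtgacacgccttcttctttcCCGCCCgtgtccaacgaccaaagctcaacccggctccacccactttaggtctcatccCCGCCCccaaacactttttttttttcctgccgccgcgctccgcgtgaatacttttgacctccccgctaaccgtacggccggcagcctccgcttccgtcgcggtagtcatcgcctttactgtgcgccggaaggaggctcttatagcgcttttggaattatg
Med28: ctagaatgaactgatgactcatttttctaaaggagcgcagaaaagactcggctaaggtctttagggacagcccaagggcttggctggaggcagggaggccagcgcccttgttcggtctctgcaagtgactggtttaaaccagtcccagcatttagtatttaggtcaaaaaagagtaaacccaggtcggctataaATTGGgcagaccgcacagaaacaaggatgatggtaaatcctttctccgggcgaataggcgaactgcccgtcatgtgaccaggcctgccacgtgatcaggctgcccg
Med18: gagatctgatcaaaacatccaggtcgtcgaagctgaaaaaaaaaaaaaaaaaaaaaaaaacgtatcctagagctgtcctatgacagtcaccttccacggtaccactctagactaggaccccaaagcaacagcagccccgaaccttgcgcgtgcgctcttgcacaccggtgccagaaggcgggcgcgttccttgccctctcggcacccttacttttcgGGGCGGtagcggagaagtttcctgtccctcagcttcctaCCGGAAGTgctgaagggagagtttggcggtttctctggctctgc

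The Med6 window holds 1 CCAAT box and 2 GC boxes, that of Med28 1 CCAAT box, and that of Med18 1 GC box and 1 ETS-type motif, so that no motif is common to the 3. Promoters were found for 28 of 33 members (32 windows; none for Cdk19, Med8, Med23, Med24 and Med30). GC boxes were in 20 of the 32 windows (62.5%) and in 35.7% of all 32851 windows of the same length. CCAAT boxes were in 12 (37.5%, against 37.4%) and ETS-type motifs in 4 (12.5%, against 3.89%). The 32851 windows were not limited to genes tested here, and some members have more than 1 window. The shares are thus not matched for expression. These matches describe the letters of the windows only.

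Med8 had the highest log2 fold change of the members tested. In yeast Med8 anchors the Med18 and Med20 pair to the head. It was listed at 0 in control replicate 1 and measured 2.25 and 2.80 RPKM in control replicates 2 and 3 (135 and 146 reads), against 7.41, 7.95 and 7.50 RPKM in ZP3 Trim-away (350, 375 and 344 reads). The ZP3 Trim-away libraries lay close together and above every control, and for the library at 0 a count of 3 reads would be 0.0538 RPKM. The log2 fold change was 1.90 ± 0.49 SE (95% confidence interval 0.78 to 3.02, limma adjusted p = 0.0900). Without control replicate 1 it was 1.29 and passed (adjusted p = 0.0494), and with a pseudocount of 0.1 it was 3.13 and did not pass (adjusted p = 0.225).

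Of the 9 head members all were tested, and 8 had a log2 fold change above 0 (7 in each of median ratio scaling, quantile normalization and the totals without Trim21). The median was 0.83, or 0.61 relative to all genes, and 7 of 9 stood above the median of all genes. With control replicate 1 left out the median relative to all genes was 0.33, and 5 of 9 stood above the median of all genes. Without ZP3 Trim-away replicate 1 the relative median was also 0.33, with 6 of 9 above. Leaving out any other library gave 0.64 to 0.72. The other 5 head members overlapped between groups. Med17, which joins the parts of the head, showed the widest spread of the head members with reads in every library, with 5.53, 18.5 and 41.6 RPKM in control pools and 48.3, 27.7 and 21.8 RPKM after ZP3 Trim-away. Its highest control was 7.52 times its lowest, far beyond counting error (5.02 to 6.07 against 40.1 to 43.1 RPKM), and its log2 fold change was 0.86 ± 0.60 SE, or 0.14 without control replicate 1 and 1.49 without control replicate 3. Med22 was the steadiest head member, at 25.1 ± 0.990 and 26.5 ± 2.33 RPKM (0.07 ± 0.15 SE, and -0.11 under median ratio scaling). Med30 had a log2 fold change of 0.51 ± 0.36 SE (0.11 without control replicate 1), Med20 of 0.36 ± 0.49 SE and Med11 of -0.16 ± 0.38 SE, all with groups that overlapped. Summed over the head the level was 145, 223 and 243 RPKM in the control libraries, against 362, 339 and 320.4 RPKM after ZP3 Trim-away, with no overlap. Med6 and Med28 make up much of these sums.

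**Figure D2:**
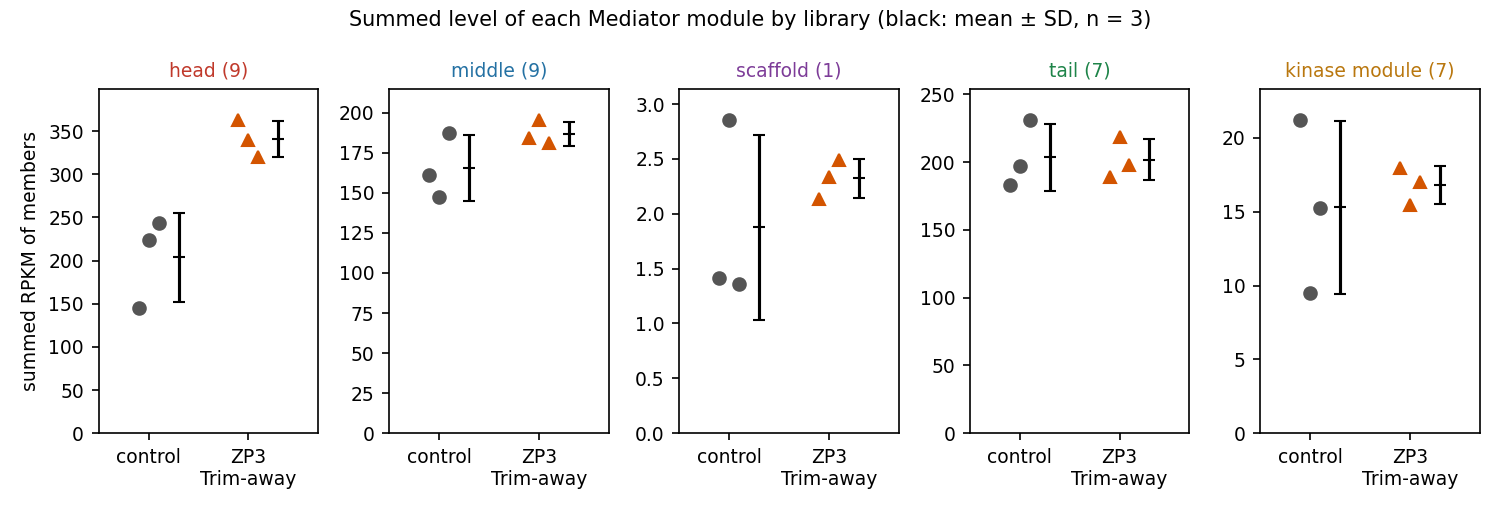
Summed RPKM of the members of each module in each library, with circles for the 3 control pools, triangles for the 3 ZP3 Trim-away pools and black bars for the mean ± SD (n = 3). The head sums separate the groups (145 to 243 against 320.4 to 362 RPKM), and those of the other modules overlap.

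The middle module lies against the polymerase and links head and tail. Of its 9 members 8 were tested, with 0.10 as the median log2 fold change (-0.12 relative to all genes), and 6 were above 0 but only 3 under median ratio scaling, quantile normalization or totals without Trim21. Med31, a small subunit conserved from yeast, measured 24.2, 28.5 and 30.1 RPKM in control pools and 37.1, 40.5 and 35.1 RPKM after ZP3 Trim-away. The groups did not overlap (0.43 ± 0.16 SE, limma adjusted p = 0.178), and the value was 0.06 with the length trend removed. Med21 measured 7.23, 7.93 and 10.3 RPKM against 13.5, 15.3 and 13.2 RPKM, again with no overlap (0.67 ± 0.21 SE, limma adjusted p = 0.145). Its partner Med7, with which it forms a hinge in yeast, measured 2.14, 5.97 and 3.29 RPKM against 9.91, 5.47 and 7.27 RPKM (0.88 ± 0.36 SE, limma adjusted p = 0.229). Here control replicate 2 lay above ZP3 Trim-away replicate 2, so that the groups overlapped.

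Med10, the most abundant middle member, measured 46.5, 39.6 and 52.9 RPKM in the control libraries, against 45.9, 56.4 and 44.0 RPKM after ZP3 Trim-away, with overlap and a log2 fold change of 0.07 ± 0.16 SE (-0.11 under median ratio scaling). Of its exon bases 92.8% are shared with Gm26819 on the opposite strand, which is not listed, and since no source says that reads were counted by strand its level is uncertain. In all, 8 of the 33 members share 10% or more of their exon bases with another gene and 15 share none. By another measure, 21 of the 33 members share under 5% of the 50-base stretches of their transcript with other genes. Among those above it are Cdk8 (17.9%) and Med4 (11.2%), which share no exon bases, and Med12 (10.4%) and Med27 (7.97%). The part of such stretches in the levels was not tested. Med31 shares 26.3% of its exon bases with 4930563E22Rik (0 to 0.278 RPKM), and Med21 shares 15.5% with opposite-strand genes that include Tm7sf3 (5.67 to 15.1 RPKM). Med7 shares 21.2% with 2310031A07Rik on the opposite strand, and Med20 shares 28.4% with genes that include Gm20517 on the same strand. Med19 shares 12.9% and Med26 12.7% with opposite-strand genes. Med1, which binds nuclear receptors, stood at 27.9 ± 6.60 and 29.3 ± 2.01 RPKM, and Med4 at 25.8 ± 11.7 and 25.8 ± 4.44 RPKM (0.10 for each, and negative under 3 scalings: -0.09, -0.06 and -0.0080 for Med1, -0.08, -0.06 and -0.0045 for Med4). Med19 stood at 21.6 ± 5.85 and 20.6 ± 4.09 RPKM (-0.05 ± 0.24 SE). Med26, a subunit known for recruiting elongation factors, measured 4.17, 2.77 and 4.03 RPKM in control pools and 2.59, 2.59 and 4.10 RPKM after ZP3 Trim-away, which overlapped (-0.19 ± 0.31 SE). Med9 was not tested and gave 1, 0 and 19 reads in the controls and 4, 6 and 1 in ZP3 Trim-away. Med14, the backbone, measured 1.41, 2.85 and 1.36 RPKM against 2.14, 2.34 and 2.49 RPKM, with overlap (0.25 ± 0.34 SE, and -0.0036 under quantile normalization).

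Tail transcripts ranged from the most abundant member, Med27, to some of the scarcest. Med27, which sits at the join of tail and core in animals, measured 155, 163 and 193 RPKM in the control libraries, against 162, 189.7 and 162 RPKM after ZP3 Trim-away. The groups overlapped throughout, and the log2 fold change was 0.01 ± 0.13 SE (95% confidence interval -0.28 to 0.30, and -0.18 under both median ratio scaling and quantile normalization). Med15, a target of activators such as the SREBP proteins, measured 15.5, 14.3 and 13.6 RPKM in control pools and 10.4, 7.83 and 12.0 RPKM after ZP3 Trim-away. It was the member whose ZP3 Trim-away libraries all lay below the controls, at -0.50 ± 0.22 SE (95% confidence interval -0.99 to -0.0042, limma adjusted p = 0.253), or -0.72 relative to all genes. Med23, known for relaying signals from Elk1, stood at 12.1 ± 3.77 and 14.5 ± 2.59 RPKM (0.28 ± 0.27 SE, and 0.0091 without control replicate 1). Med24 (-0.13 ± 0.39 SE) and Med25 (-0.14 ± 0.35 SE) overlapped between groups. Of the 5 tail members tested 2 were above 0, with a median of -0.13, or -0.35 relative to all genes. Without control replicate 3 the median was 0.10 and 3 of 5 were above 0, and with the columns as deposited it was 0.07. The difference between head and tail medians was not tested.

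Med29 and Med16 of the tail fell under the level needed for the test. Med29 gave 41, 0 and 0 reads in the controls and 8, 40 and 32 in ZP3 Trim-away. Med16 gave 0, 0 and 104 reads against 6, 9 and 0, so that most of its reads came from control replicate 3 (1.28 RPKM, 95% Poisson interval 1.05 to 1.56). Each of these genes had a library at 0 and another above 1 RPKM within the controls.

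**Figure D3:**
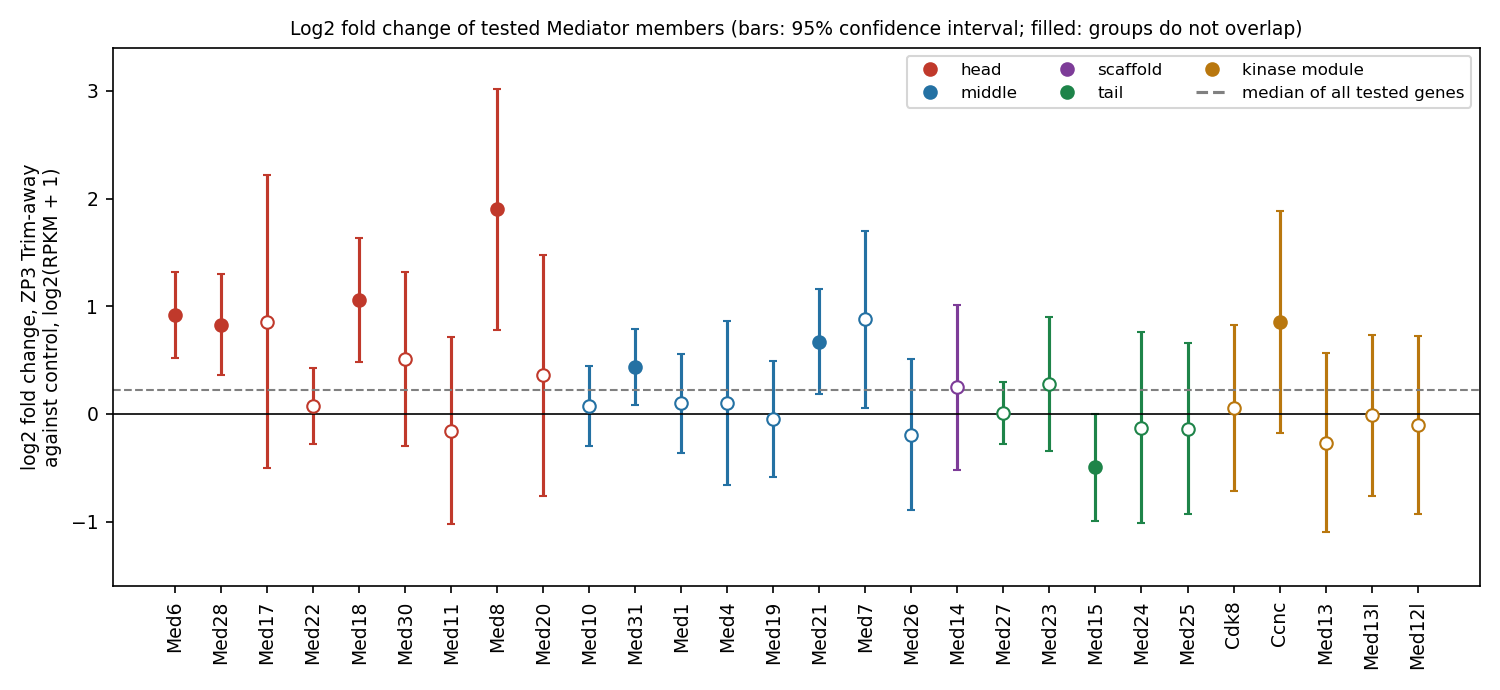
Log2 fold change (log2(RPKM + 1) scale, ZP3 Trim-away against control) of the 28 members tested, with 95% confidence intervals from limma and colours for the modules. Filled symbols mark the 8 members whose groups did not overlap, the dashed line is the median of all genes tested (0.22), and Med8 has the highest value (1.90) and Med15 the lowest (-0.50).

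The kinase module was scarce, with 2.40% of the summed Mediator RPKM from 7 genes. Cdk8, its kinase, measured 6.26, 2.39 and 4.30 RPKM in the control libraries, against 4.75, 3.60 and 4.54 RPKM after ZP3 Trim-away, all within the range of the controls (0.06 ± 0.34 SE, and -0.10 and -0.11 under median ratio scaling and quantile normalization). Its paralogue Cdk19 gave 0, 21 and 0 reads against 22, 10 and 9 reads, or 0 to 0.239 RPKM, and was not tested. Cdk8 lay above Cdk19 in 6 of 6 libraries. Ccnc, the cyclin that activates the kinase, measured 4.40, 0.694 and 4.09 RPKM in control pools and 5.85, 5.42 and 5.25 RPKM after ZP3 Trim-away. The groups did not overlap, and control replicate 2 (71 reads) stood far under the other controls (418 and 364 reads). The log2 fold change was 0.85 ± 0.45 SE (95% confidence interval -0.18 to 1.88, limma adjusted p = 0.343), and 0.31 without that library.

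Med13, which ties the kinase module to the core, measured 7.02, 2.72 and 3.52 RPKM in the control libraries, against 4.01, 2.39 and 3.56 RPKM after ZP3 Trim-away, with overlap and a high value in control replicate 1 (-0.27 ± 0.37 SE). Its paralogue Med13l measured 1.71, 2.17 and 1.79 RPKM against 1.30, 1.87 and 2.53 RPKM (-0.01 ± 0.33 SE). Med13 exceeded Med13l in 6 of 6 libraries, by 1.25 to 4.10 times in the controls and 1.28 to 3.08 times in ZP3 Trim-away. Med12, which with cyclin C switches on Cdk8, measured 0, 0.597 and 0.784 RPKM against 0.775, 1.27 and 0.119 RPKM and was not tested. Med12l measured 1.81, 0.744 and 0.766 RPKM against 1.01, 0.792 and 0.943 RPKM (-0.10 ± 0.36 SE). It stood above Med12 in 4 of 6 libraries, and 17.3% of its exon bases are shared with genes of the opposite strand. Of the 5 kinase module genes tested 2 were above 0 (1 under each of the 3 scalings named above), and the median was -0.01, or -0.23 relative to all genes. Without control replicate 1 the median of the 4 genes still tested was 0.19, with 3 above 0.

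Members shorter in exon sequence had the higher changes, as did genes at large. Spearman's rho between the log2 fold change and exon length was -0.41 over the 28 members and -0.30 over 9855 genes, both as descriptions across genes that share libraries and are not independent replicates. Median exon length was 3001 bases in the head, 3174 in the middle, 6692 in the tail and 10840 in the kinase module, and 3627 over all genes tested. The 13 members below 3627 bases had a median log2 fold change of 0.43 (0.35 in all shorter genes) and the 15 above it 0.07 (0.10 in all longer genes). With the trend on length removed, the head kept a median of 0.52 relative to all genes, 7 of its 9 members lay above 0, and the kinase module moved to 0.06.

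**Figure D4:**
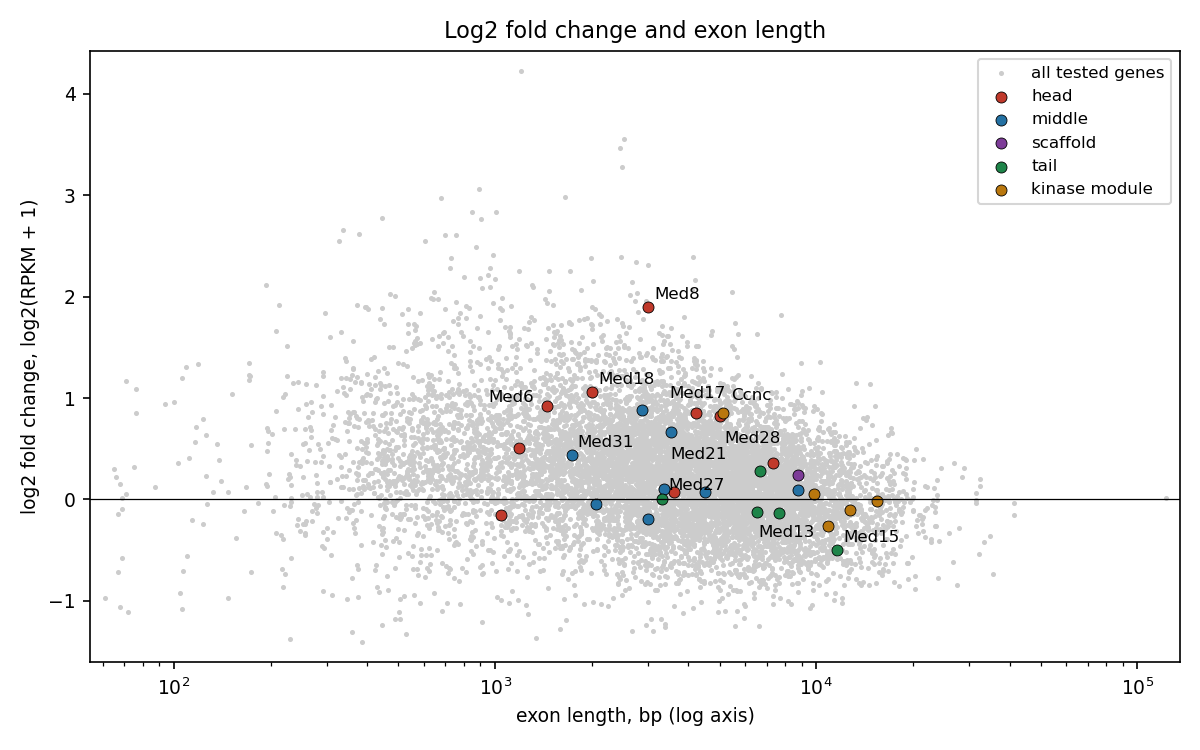
Log2 fold change (log2(RPKM + 1) scale) against exon length (bp, log axis) of all 9855 genes tested with a length (grey) and of the 28 Mediator members (coloured by module, those with groups that do not overlap labelled together with Med13, Med17 and Med27). Head genes are mostly shorter and most lie higher, Med11 (-0.16) and Med22 (0.07) excepted. Kinase module genes are longer and lie near 0, apart from Ccnc (0.85) and Med13 (-0.27).

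Oocyte transcripts can change the length of their poly(A) tail without a change in number, through a cytoplasmic polyadenylation element near the 3′ end, and the library kit primes on poly(A). A TTTTAT or TTTTAAT in the last 100 bases of the principal transcript (GENCODE M21, GRCm38, transcript strand) was found in 6 of 28 members tested (21.4%: Med10, Med11, Med15, Med19, Med24 and Med31) and in 20.5% of 8124 genes tested, and a polyadenylation signal, AATAAA or ATTAAA, in the last 50 bases in 78.6% and 79.4%. The element of Med31 on chromosome 11 ends 21 bases before the transcript end and that of Med15 on chromosome 16 ends 61 bases before it. They are shown as the members with the element whose groups did not overlap, Med31 higher and Med15 lower in ZP3 Trim-away. The other 4 overlapped, and any part of tail length was not tested. Capitals mark the element.
Med31: tggcaaattTTTTATtaataaatt
Med15: aattcccctTTTTATatgtgcact

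Reads of the 33 members together took 0.207%, 0.229% and 0.269% of the control libraries and 0.290%, 0.281% and 0.267% of the ZP3 Trim-away libraries. Control replicate 1 was the lowest of the 6 libraries for 16 of 33 members, control replicate 2 for 8 and control replicate 3 for 2. Ties at 0, in Cdk19, Med16 and Med29, were counted for the tied control with the lowest number. Shares over all genes were not computed for these counts. Members listed at 0 numbered 4 in control replicate 1 (Cdk19, Med12, Med16 and Med8), 3 in control replicate 2 (Med16, Med29 and Med9) and 2 in control replicate 3 (Cdk19 and Med29), against 0, 0 and 1 (Med16) in ZP3 Trim-away. In all, 27 members had reads in every library. The libraries with more members at 0 were thus the controls, although their totals were higher. Over all genes, too, fewer stood above 0 in the controls (13202 to 14501) than in ZP3 Trim-away (18794 to 20316). The totals include reads of Trim21. These took 14.6% to 18.1% of control and 9.12% to 11.0% of ZP3 Trim-away libraries.

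**Figure D5:**
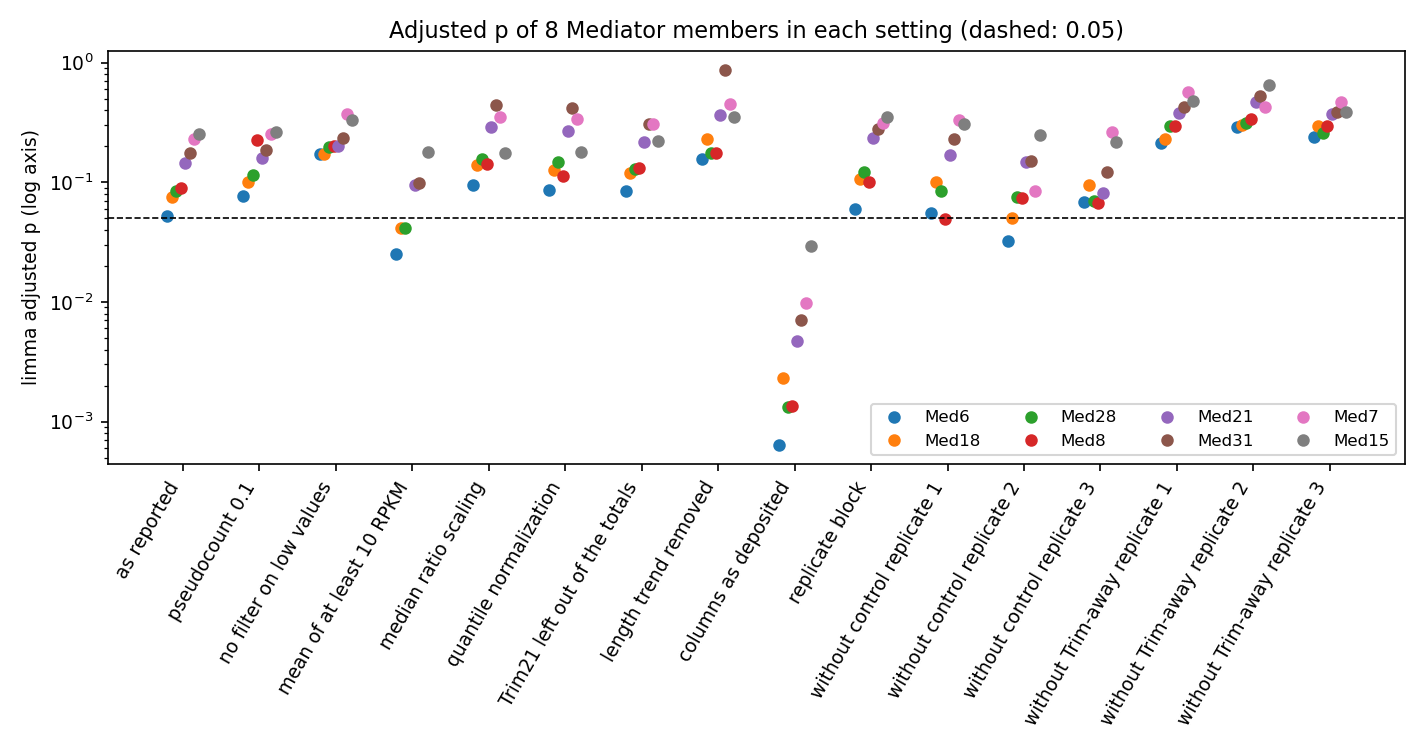
Limma adjusted p (log axis) of the 8 members with an unadjusted p under 0.05, in the reported setting and in each alternative, with the dashed line at 0.05. Points lie below the line for Med6, Med28 and Med18 with genes of at least 10 RPKM, for Med8 without control replicate 1, for Med6 without control replicate 2, and for all 8 with the columns as deposited.

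Genes that work with Mediator were taken from 4 lists, for which the shares of all genes tested (0.632% past the threshold, 19.5% at an unadjusted p under 0.05 and 67.3% above 0) are the background. None of the listed genes passed the test. All 4 lists were run in the reported setting only, so how scaling or exon length bears on their medians was not tested. Of 12 RNA polymerase II subunits all were tested, 10 were above 0, 4 had an unadjusted limma p under 0.05, and the median was 0.55 (0.33 relative to all genes). Polr2g, the most abundant, stood at 118 ± 19.0 and 175 ± 11.3 RPKM (0.58 ± 0.14 SE, limma adjusted p = 0.0762), Polr2k was the highest in log2 fold change (1.21 ± 0.38 SE) and Polr2c the lowest (-0.25 ± 0.12 SE). Of 35 preinitiation factors 31 were tested, 21 were above 0 and 9 had an unadjusted p under 0.05, with a median of 0.26 (0.04 relative). Gtf2a1, a TFIIA subunit gene and the most abundant, stood at 213 ± 18.8 and 174.5 ± 14.4 RPKM (-0.29 ± 0.12 SE), Gtf2h2 of TFIIH at 0.92 ± 0.36 SE and Tbpl1, a relative of the TATA-binding protein, at -0.85 ± 0.27 SE on the log2 scale.

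Factors of pause release and elongation numbered 31, of which 21 were tested, 12 were above 0 and 3 had an unadjusted limma p under 0.05, with a median of 0.03 (-0.19 relative). Ell, the most abundant of them, had a log2 fold change of -0.21 ± 0.19 SE. Supt4a, a subunit of the elongation factor DSIF, stood at 11.2 ± 0.560 and 24.5 ± 5.78 RPKM (1.04 ± 0.22 SE, limma adjusted p = 0.0601). Of 20 coactivators and enhancer partners 14 were tested, 3 were above 0 and 2 had an unadjusted p under 0.05, with a median of -0.17 (-0.38 relative). Nipbl, the cohesin loader that meets Mediator at enhancers, stood at 30.0 ± 1.84 RPKM in control pools and 18.5 ± 2.25 RPKM after ZP3 Trim-away (-0.67 ± 0.17 SE, limma adjusted p = 0.0837). The acetyltransferase gene Crebbp, the most abundant, stood at 33.0 ± 3.24 and 22.0 ± 3.81 RPKM, with no overlap (-0.57 ± 0.18 SE, limma adjusted p = 0.137). Supt3 of the SAGA complex had the highest log2 fold change (0.60 ± 0.36 SE).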

How the data were processed

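RNA from 6 pools of 13 zygotes was made into libraries with the NEBNext Single Cell/Low Input kit. A single table of RPKM, covering 25731 genes, was deposited by the authors. It was made, per the labels and the study's methods, by quality control (FastQC 0.11.9), adapter trimming (Trimmomatic), alignment (HISAT2), sorting (SAMtools) and gene counting (htseq-count), whose other versions the sources used here do not give. The sources name both GRCm38 and GRCm39, so no coordinates of the genes as counted are printed.

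Control replicates 2 and 3 were separated as 2 times the column minus replicate 1, and no value came out negative (0 genes). Library totals were estimated, with exon lengths of GENCODE M21, as those at which values come out as whole reads. At these totals 95.1% to 96.1% of values came within 0.01 of a whole read. Values enter as log2(RPKM + 1). Genes whose mean over the 6 libraries reached 1 RPKM were tested with limma 3.58.1 in R 4.3.3 (trended prior, two-sided, Benjamini-Hochberg 0.05 over all 9965 genes). The fit takes 1 spread per gene for both groups, so SE, confidence intervals and p-values assume equal spread. Control libraries varied more than ZP3 Trim-away libraries (median SD 0.44 against 0.20). Tables were made in Python 3.11.15 with pandas 2.3.3, numpy 2.4.6 and scipy 1.17.1. The procedure was tested on simulated data with the same spread in both groups, so its behaviour at unequal spread was not tested.

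The members, modules, marker lists and the 4 lists of partners (RNA polymerase II subunits, preinitiation factors, pause release and elongation, coactivators and enhancer partners) were chosen with earlier results of these data known. Values in every library were to be given for members past the threshold, the 5 most abundant, the 7 kinase module genes and the 3 highest and 3 lowest log2 fold changes, and for each partner list the most abundant, highest and lowest gene. A gene this rule would name is not reported here. Those given for Med17, Med21, Med7, Med14 and the members below 1 RPKM were added after their values were seen. So were those of Crebbp, which the rule names as the most abundant of its list. Amplified reads are not independent molecules, so that intervals and the limit of 3 reads describe counting error alone. Alternatives were another pseudocount, filter, scaling or correction, the columns as deposited, a replicate block and leaving out each library. No column of values was left unused (0).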

Additional observations from a re-analysis of the deposited data

How the results depend on the processing

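The reported setting gave 63 genes and 0 Mediator members past the limma threshold, and the members' median log2 fold change lay at -0.12 relative to all genes. The count of genes was 19 with a pseudocount of 0.1, 0 with no filter on low values (3323 genes at an unadjusted p under 0.05), 368 of 3459 with a mean of at least 10 RPKM, 12 under median ratio scaling, 24 under quantile normalization, 19 with Trim21 left out of the totals, 36 with the length trend removed and 3539 of 9965 with the columns as deposited (2523 higher and 1016 lower), and 0 to 300 with 1 library left out (162, 300 and 125 without control replicates 1, 2 and 3, and 0 without any 1 ZP3 Trim-away library, where 1208, 1100 and 1238 genes had an unadjusted p under 0.05). Members past the threshold numbered 3 of 15 at 10 RPKM or more, 11 of 28 with the columns as deposited (Med6, Med7, Med8, Med17, Med18, Med21, Med28, Med30 and Med31 higher, Med13 and Med15 lower), 0 to 1 with 1 library left out (Med8 without control replicate 1, Med6 without control replicate 2), and 0 in every other alternative run. Their relative median was -0.21 with a pseudocount of 0.1, -0.15 under median ratio scaling, -0.14 with Trim21 left out of the totals, -0.048 under quantile normalization, -0.053 with the columns as deposited, 0.0031 with no filter, 0.077 at 10 RPKM or more, 0.064 with the length trend removed and -0.12 to 0.030 with 1 library left out. The scalings moved the median log2 fold change of all genes from 0.22 to 0.07 (median ratio), -0.01 (quantile) and 0.14 (Trim21 left out).

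Same-numbered libraries did not deviate together (r = -0.06, 0.02 and -0.05), and pairs of different numbers lay at -0.04 to 0.09. With 3 libraries per group these values cannot show whether same-numbered libraries share a collection. With the replicate block 0 genes and 0 members passed (1733 genes and 6 members at an unadjusted p under 0.05, smallest member adjusted p = 0.0597), and the cause was not tested.

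Directions turned in members near 0. Under median ratio scaling the log2 fold change was -0.087 for Med1, -0.099 for Cdk8, -0.18 for Med27, -0.11 for Med22, -0.11 for Med10 and -0.084 for Med4, and under quantile normalization -0.059, -0.11, -0.18, -0.078, -0.12 and -0.062 for the same members and -0.0036 for Med14. With Trim21 left out of the totals it was -0.0080, -0.031, -0.099, -0.031, -0.033 and -0.0045 for these 6. With the length trend removed it was -0.24 for Med27, -0.15 for Med22, -0.11 for Med10, -0.14 for Med4 and 0.076 for Med13l, and with the columns as deposited -0.24 for Cdk8, 0.14 for Med24, -0.065 for Med4 and 0.030 for Med13l. With 1 library left out the range crossed 0 for Cdk8 (-0.23 to 0.31), Med1 (-0.11 to 0.22), Med10 (-0.033 to 0.17), Med11 (-0.43 to 0.20), Med13 (-0.50 to 0.057), Med13l (-0.16 to 0.14), Med19 (-0.21 to 0.15), Med20 (-0.11 to 0.70), Med24 (-0.46 to 0.24), Med25 (-0.28 to 0.047), Med27 (-0.067 to 0.10) and Med4 (-0.31 to 0.38). It stayed above 0 but moved widely for Med17 (0.14 to 1.49), Med30 (0.11 to 0.80), Med23 (0.0091 to 0.43) and Med14 (0.12 to 0.48). The causes were not tested. Med6, Med28, Med18 and Med8 were above 0 in every alternative they were tested in. So were Med7, Med17, Med21, Med23, Med30, Med31 and Ccnc, while Med12l, Med15 and Med26 were below 0 in every one. The 5 members below 1 RPKM, with 0 to 154 reads in a library, were left out of the test by the filter on low values.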
